A study of Homo sapiens with 6 samples.

Results

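The transcripts of the kinesin superfamily were examined in H9, a human cell line of cutaneous T-cell lymphoma (CTCL), after vehicle or AZD4573, an inhibitor selective for the transcriptional kinase CDK9. Bulk RNA-seq was the assay. Members were the genes whose symbol is KIF followed by a number and an optional letter, together with KIFC1, KIFC2 and KIFC3, which gave 43 of the 61541 genes counted. Each group held 3 libraries of wild-type H9 cells, 1 group given DMSO and the other AZD4573. For AZD4573 the labels give 4 h, and the dose of 50 nM comes from the study's figure legends, not from the labels. No exposure time is given in the labels of the DMSO libraries. H9 is a single established line. The sample labels do not say whether the libraries came from separate cultures, so p-values measure only the spread between these libraries, which may be technical. From what each protein is known to do, 14 kinesins were classed as mitotic, 15 as transport and 14 as other.

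Kinesins are motor proteins that use ATP to move along microtubules or to take microtubules apart at their ends. The mitotic kinesins build the spindle, move and align chromosomes and form the midzone and midbody at cytokinesis, and most of their transcripts are made late in the cell cycle, in G2 and mitosis. The transport kinesins carry vesicles, mitochondria, endosomes and other cargo in interphase cells. In T cells, kinesins position lytic granules, the centrosome and signalling vesicles at the immune synapse.

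Total counts ranged from 70367303 to 76571157 with DMSO and from 52101868 to 63795185 with AZD4573. Levels are given as CPM, the counts of a gene relative to the library total after TMM scaling by edgeR, and a floor of 3 counts came to at most 0.0590 CPM in a library. Such floors cover counting error only. The mRNAs of the mitochondrial genome took 3.04% to 3.22% of the counts with DMSO and 4.67% to 4.98% with AZD4573. Because this share differed between the groups, directions that turn and calls that are gained or lost are also given with the libraries scaled to these 13 mRNAs, under which the log2 fold change of the median gene was -0.71 and not 0.03. Of 11 T-cell markers, 10 passed the filter on low counts, with a summed level of 1439 to 1514 CPM with DMSO and 1966 to 1999 CPM with AZD4573, while CD2 had 13 counts or fewer in each library. The direction of these markers turned with the scaling, from 9 higher and 1 lower with TMM (median log2 fold change 0.35) to 2 higher and 6 lower with mitochondrial scaling (median -0.39). B-cell markers summed to 61.0 to 67.0 CPM with DMSO and 92.5 to 103 CPM with AZD4573, most of it CD79A, and PAX5 had 3 counts or fewer. Epithelial and stromal markers summed to 156 to 173 CPM and 137 to 141 CPM, mostly EPCAM, and myeloid markers to 0.649 CPM or less, with FCGR3A at 0 in all 6 libraries. These sums are TMM-scaled. The part of these marker shifts in the results below was not tested. In bulk RNA, fewer cells of a type or cell-cycle phase and less RNA per cell cannot be told apart.

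Among the 34 kinesins that passed the filter, 22 fell and 4 rose upon AZD4573 treatment, and 8 did not pass the threshold (p under 0.05 by edgeR's quasi-likelihood test, adjusted after Benjamini and Hochberg over all 17678 genes). By this rule 37.4% of all genes were lower and 37.3% higher, so the share of kinesins was above this background for falls and below it for rises, without a test of that difference. Mitotic kinesins gave 9 lower and 0 higher genes of 12 tested, and transport kinesins gave 8 lower and 1 higher of 12, the latter 0 with mitochondrial scaling. The remaining kinesins gave 5 lower and 3 higher of 10. With a fold change of at least 1.5 added, 5 mitotic and 4 transport kinesins were lower, and 1 transport and 3 other kinesins were higher, where 23.7% of all genes were lower and 22.7% higher. All 3 AZD4573 libraries lay below all 3 DMSO libraries for 23 kinesins and above them for 4, and for 7 the groups overlapped. Over all genes, 38.7% lay below and 39% above, 77.8% in all. With mitochondrial scaling, 26 of the 34 kinesins were lower and 0 were higher, beside 67.2% of all genes lower and 12.1% higher under that scaling. The 9 kinesins not tested had at most 13 counts in any library and were the mitotic KIF2B and KIF4B, the transport KIF1A, KIF13A and KIF17, and KIF6, KIF12, KIF26A and KIF28P, with KIF2B and KIF12 at 0 counts throughout.

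**Figure D1:**
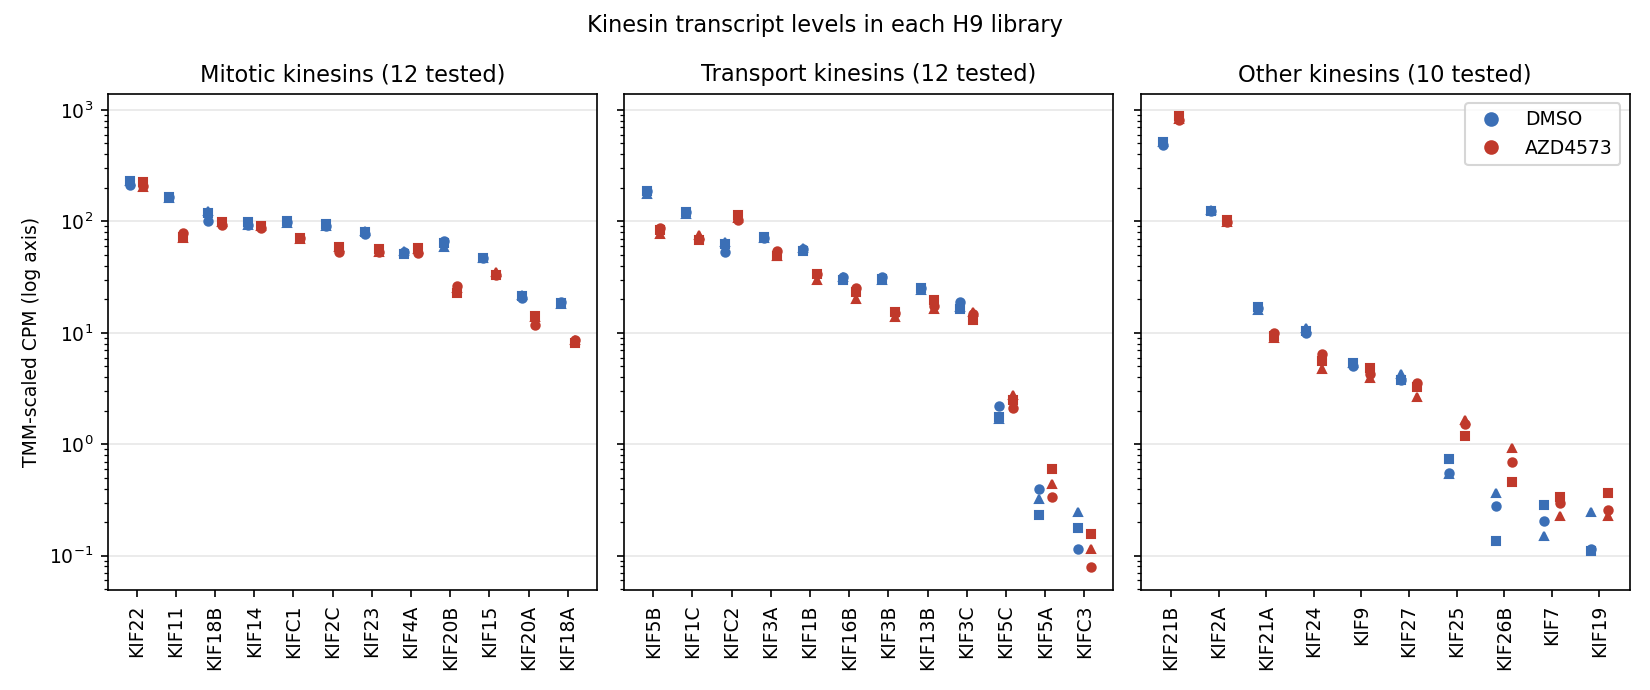
Level of each tested kinesin in each library, in CPM (TMM-scaled) on a log axis, with DMSO and AZD4573 libraries as separate points and the genes grouped by class. KIF21B was the most abundant kinesin in CPM and KIFC3, KIF19 and KIF7 were near the lower end, and for KIF20B, KIF11 and KIF5B the treated points lie well below the controls.

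The mitotic and transport classes had medians close to each other. The median log2 fold change was -0.53 over the 12 mitotic and -0.48 over the 12 transport kinesins tested, beside 0.03 over all genes, and with mitochondrial scaling both medians and that of all genes moved down together, to -1.26, -1.22 and -0.71. Relative to the median of all genes, the values were -0.55 and -0.51 by either scaling, since a scaling shifts all genes nearly alike. The summed level of the mitotic class was 1048, 1089 and 1080.0 CPM with DMSO and 773, 809 and 784 CPM with AZD4573, a ratio of means of 0.736. The transport class summed to 600.0, 603 and 593 CPM with DMSO and 423, 422 and 407 CPM with AZD4573, a ratio of 0.697. In both classes each treated library lay below each control. The ratio of the mitotic to the transport sum, which no scaling of the libraries can change, averaged 1.79 in the controls (SD 0.0395, n = 3) and 1.89 in the treated libraries (SD 0.0531, n = 3). Its groups did not overlap, but the lowest treated value (1.83) stood only just above the highest control value (1.82). The other kinesins summed to a mean of 667 CPM in the controls (SD 17.3, n = 3) and 964 CPM after treatment (SD 39.0, n = 3), and most of this sum was KIF21B. The sums and their ratio depend on this class border. KIF21B, at a mean of 506 CPM with DMSO and 838 CPM with AZD4573, rose by more than the transport sum fell. With KIF21A and KIF21B classed as transport, the transport sum would rise and the mitotic to transport ratio would fall. The transport median would stay at -0.48.

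**Figure D2:**
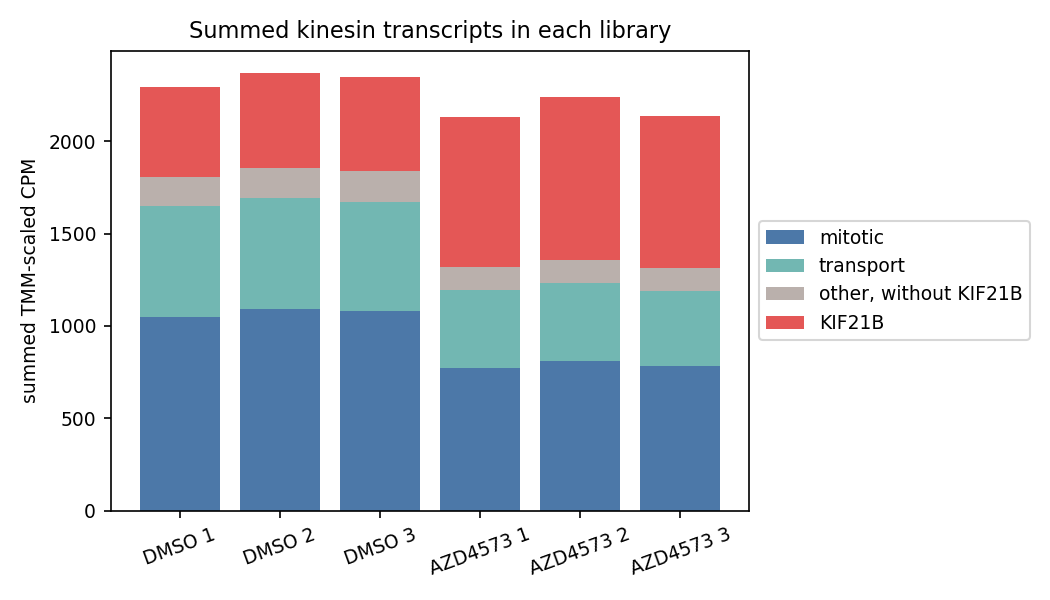
Summed TMM-scaled CPM of all kinesins in each of the 6 libraries as stacked bars, split into mitotic, transport, KIF21B and the remaining kinesins. The mitotic part is smaller in the treated libraries (means of 1072 and 789 CPM), as is the transport part (599 and 417 CPM), while KIF21B takes 21.6% of the bar in the controls and 38.6% after treatment.

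The largest falls among all kinesins that passed the threshold were those of KIF20B, KIF11, KIF5B, KIF18A and KIF3B, 3 mitotic and 2 transport motors. Of all genes tested, 14.2% had a log2 fold change of -1 or below. These 5 of the 34 kinesins tested did, a share near that of all genes. KIF20B, a kinesin-6 motor of the midzone and midbody, had 67.0, 63.5 and 59.2 CPM with DMSO and 26.4, 22.7 and 25.3 CPM with AZD4573. Every treated library was below every control, and the mean fell to 39.2% of its DMSO value, the deepest fall in the family. Its log2 fold change was -1.35 (SE 0.0662, adjusted p = 7.7e-10, edgeR's quasi-likelihood test).

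KIF11 (kinesin-5, also called Eg5) pushes spindle poles apart by sliding antiparallel microtubules and is the target of several mitotic inhibitors. Its gene occupies bases 92574105 to 92655395 of chromosome 10 (GRCh38), with 22 exons in the canonical transcript. Its level was 167, 166 and 162 CPM with DMSO and 79.1, 72.4 and 70.2 CPM with AZD4573, with no overlap between groups. The mean fell to 44.7% of the DMSO value (log2 fold change -1.16, SE 0.0494, adjusted p = 2.5e-10, edgeR's quasi-likelihood test). KIF18A, a kinesin-8 motor that dampens chromosome movements at the metaphase plate, went from 19.0, 18.5 and 18.1 CPM to 8.61, 8.02 and 8.60 CPM. The treated libraries were again all below the controls (log2 fold change -1.14, SE 0.0700, adjusted p = 5.9e-09, edgeR's quasi-likelihood test).

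KIF5B encodes the ubiquitous heavy chain of conventional kinesin (kinesin-1) and carries mitochondria, lysosomes and vesicles. Its gene spans 32009015 to 32056425 on chromosome 10, on the minus strand, with 26 exons in the canonical transcript. KIF5B had 188, 187 and 177 CPM with DMSO and 87.1, 82.9 and 77.6 CPM with AZD4573. The groups were far apart compared with the spread within them, and the log2 fold change was -1.16 (SE 0.05, adjusted p = 2.9e-10, edgeR's quasi-likelihood test), the same to 2 decimals as that of the mitotic KIF11. KIF3B, a motor subunit of heterotrimeric kinesin-2, which serves intraflagellar and vesicle transport, went from 31.5, 30.5 and 29.7 CPM to 15.1, 15.4 and 13.8 CPM, without overlap (log2 fold change -1.05, SE 0.0632, adjusted p = 4.7e-09, edgeR's quasi-likelihood test).

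The sequence around the transcription start was compared across the family. Late cell-cycle genes often carry a cell cycle homology region (TTTGAA) near a CCAAT box, through which MuvB complexes and NF-Y are known to act. RefSeq promoters (GRCh38.p14, 250 bases before to 50 after the start, both strands searched) were matched for 34 of the 43 kinesins. These 34 kinesins had 43 promoters, and a kinesin was counted once if any of its promoters held a motif. The shares of all promoters count single promoters, so the units differ. TTTGAA occurred in the promoters of 10 of 14 mitotic, 1 of 11 transport and 0 of 9 other kinesins, and in 15.2% of all 35116 promoters. In KIF14, KIF18B, KIF4B, KIFC1 and KIF20B it lay only after the start. CCAAT occurred in 11 of 14, 4 of 11 and 3 of 9, beside 34.6% of all promoters, and both motifs together in 9 of 14, 1 of 11 and 0 of 9, beside 5.9%. An E2F-like motif, written as TTCCCGC, also as TTCGCGC, or else as TTGGCGC, occurred in 3 of 14, 3 of 11 and 2 of 9, beside 11% of all promoters. The stretches below are shown because they carry the same letters while their transcripts differed in response: KIF11, KIF18A and KIF5B fell, and KIF4A did not pass the threshold. Each is read on the strand of its gene and ends at the last base before the RefSeq start, and capitals mark TTTGAA or CCAAT, or their reverse complements TTCAAA and ATTGG. The regions are chr10:92593040-92593129 (plus strand) for KIF11, inside the gene's annotated span because a longer transcript starts upstream, chr11:28108157-28108246 (minus strand) for KIF18A, chrX:70290014-70290103 (plus strand) for KIF4A and chr10:32056426-32056585 (minus strand) for KIF5B, and none of these bases is in an annotated exon.
KIF11: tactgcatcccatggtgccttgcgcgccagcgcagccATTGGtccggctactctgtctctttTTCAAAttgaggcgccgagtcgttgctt
KIF18A: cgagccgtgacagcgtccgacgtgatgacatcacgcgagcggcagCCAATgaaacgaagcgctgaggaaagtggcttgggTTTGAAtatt
KIF4A: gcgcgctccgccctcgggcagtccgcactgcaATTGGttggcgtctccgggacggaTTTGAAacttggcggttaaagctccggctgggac
KIF5B: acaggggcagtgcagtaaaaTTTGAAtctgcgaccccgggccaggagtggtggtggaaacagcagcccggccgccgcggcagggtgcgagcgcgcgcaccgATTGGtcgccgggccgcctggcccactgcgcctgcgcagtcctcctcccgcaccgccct
In the 3 mitotic promoters both motifs began within 58 bases of the start, with TTTGAA nearer to it, at 28 bases upstream in KIF11, 10 in KIF18A and 34 in KIF4A. In KIF5B, the only 1 of the 11 matched transport kinesins with both, CCAAT began 59 bases and TTTGAA 140 bases upstream. Of the 9 mitotic kinesins that were lower, 7 had TTTGAA, and of the 3 that did not pass the threshold, 2 had it, KIF14 and KIF4A. Matching letters describe the sequence only and do not show that a factor binds there.

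The 5 most abundant mitotic kinesins per kilobase of exon, averaged over the 6 libraries, were KIF22 (30.4 CPM per kb), KIFC1 (27.8), KIF11 (22.5), KIF18B (22.4) and KIF2C (20.5), and their log2 fold changes ran from -1.16 to -0.09. KIF22 (kinesin-10, Kid), a chromokinesin that pushes chromosome arms toward the plate, had 213, 229.8 and 231 CPM with DMSO and 206, 224 and 204 CPM with AZD4573. Its groups overlapped and the log2 fold change was -0.09 (SE 0.0493, adjusted p = 0.122, edgeR's quasi-likelihood test). KIF22 passed the threshold as lower without DMSO replicate 1 (-0.14), without AZD4573 replicate 2 (-0.14) and without the filter on low counts (-0.13). It also did so by library size (-0.19) and by mitochondrial scaling (-0.83). KIFC1 (kinesin-14, HSET), a minus-end motor that focuses spindle poles, went from 98.5, 99.8 and 96.3 CPM to 70.2, 71.2 and 69.6 CPM. These values were tight within each group and did not overlap, and KIFC1 fell by 0.48 on the log2 scale (SE 0.0425, adjusted p = 2.1e-07, edgeR's quasi-likelihood test).

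KIF2C (kinesin-13, MCAK) does not walk but takes tubulin off microtubule ends and so corrects faulty attachments at centromeres. It went from 91.3, 93.9 and 91.6 CPM to 52.7, 59.4 and 58.6 CPM without overlap (log2 fold change -0.70, SE 0.0523, adjusted p = 4.1e-08, edgeR's quasi-likelihood test). KIF18B, a kinesin-8 motor that limits the length of astral microtubules, had 101, 119.8 and 124 CPM with DMSO and 92.1, 99.5 and 98.7 CPM with AZD4573. The lowest control lay just above the highest treated library, and the log2 fold change was -0.25 (SE 0.0667, adjusted p = 0.00427, edgeR's quasi-likelihood test). KIF20A, KIF23 and KIF15 were also lower, with log2 fold changes from -0.68 to -0.47. KIF20A shares 132 exon bases with BRD8 (-0.38) and 74 with CDC23 (-0.83), both on the opposite strand. Reads over those bases could not be assigned.

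Among mitotic kinesins, KIF22, KIF14 and KIF4A did not pass the threshold. KIF14, a kinesin of the midbody, had a log2 fold change of -0.08 (adjusted p = 0.106, edgeR's quasi-likelihood test), although its 3 treated libraries, at 88.1, 90.5 and 90.2 CPM, all lay below its controls, at 93.3, 98.0 and 93.0 CPM. By library size KIF14 passed as lower, at -0.19. KIF4A, a chromokinesin that works with PRC1 at the spindle midzone, had 53.4, 50.5 and 54.1 CPM with DMSO and 52.4, 57.9 and 57.0 CPM with AZD4573. The groups overlapped (log2 fold change 0.08 with TMM, adjusted p = 0.179, edgeR's quasi-likelihood test), and KIF4A passed as higher without AZD4573 replicate 1 (0.12). The value was -0.02 by library size and -0.66 by mitochondrial scaling. KIF4A shares 77 exon bases with PDZD11 (log2 fold change 0.37) on the opposite strand, and reads over those bases could not be assigned. KIF4A has a near-identical intronless copy, KIF4B, between which reads could be split, but KIF4B had at most 4 counts in a library where KIF4A had 2666 to 4193. With mitochondrial scaling all 3 genes were lower and so was every other tested mitotic kinesin, 12 of 12, where 67.2% of all genes were lower.

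**Figure D3:**
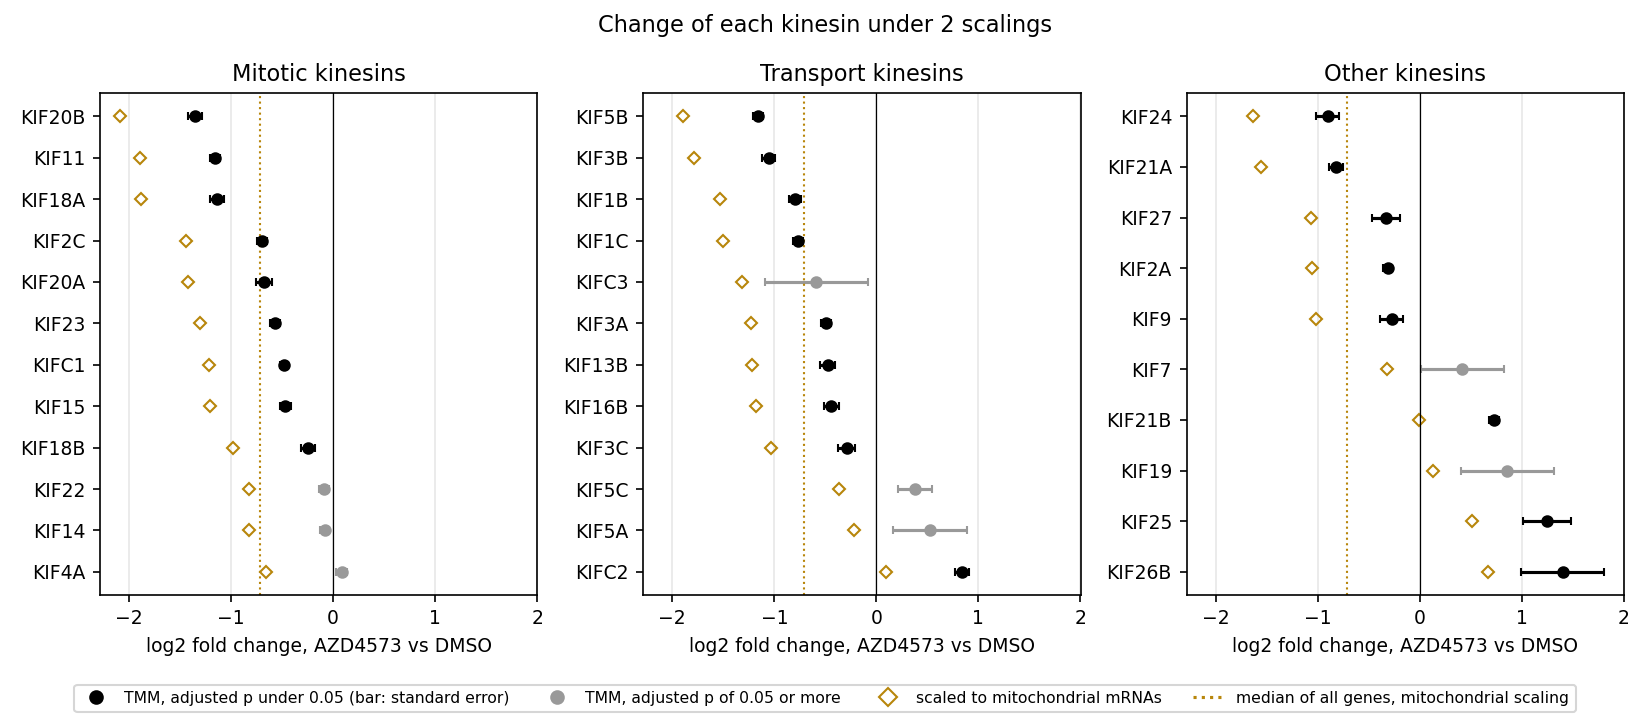
Log2 fold change (AZD4573 against DMSO, TMM scaling) of the 34 tested kinesins by class, with SE bars (black past the threshold, grey otherwise), beside the value after scaling to mitochondrial mRNAs (diamonds). Mitotic values run from -1.35 to 0.08 and transport values from -1.16 to 0.84 with TMM, and with mitochondrial scaling the higher calls (KIFC2, KIF21B, KIF25 and KIF26B) are no longer past the threshold, with KIF21B at -0.01.

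Per kilobase of exon, the most abundant transport kinesins were KIF5B (22.7 CPM per kb), KIFC2 (18.9), KIF1C (11.2), KIF3A (8.89) and KIF3B (3.71). KIF1C, a kinesin-3 motor of vesicles and of mRNA at cell protrusions, had 122, 122 and 117 CPM with DMSO and 69.8, 68.3 and 74.7 CPM with AZD4573. It fell by 0.77 on the log2 scale (SE 0.0474, adjusted p = 6.4e-09, edgeR's quasi-likelihood test), and no treated library reached the controls. KIF3A, the kinesin-2 partner of KIF3B, went from 71.0, 71.8 and 71.1 CPM to 54.2, 48.7 and 49.2 CPM, also without overlap (log2 fold change -0.49, SE 0.0515, adjusted p = 1.2e-06, edgeR's quasi-likelihood test). KIF1B, KIF13B and KIF16B, kinesin-3 motors of synaptic vesicle precursors, of vesicles and of early endosomes, and KIF3C, the third kinesin-2 motor subunit, were lower as well, with log2 fold changes from -0.80 to -0.29.

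KIFC2 was the transport kinesin that went the other way. This minus-end motor, best known from neurons, had 53.3, 63.0 and 64.8 CPM with DMSO and 103, 113 and 107 CPM with AZD4573, and all treated libraries were above all controls. It rose by 0.84 on the log2 scale with TMM (SE 0.0678, adjusted p = 9.1e-08, edgeR's quasi-likelihood test), and with mitochondrial scaling the value was 0.10 (adjusted p = 0.21, edgeR's quasi-likelihood test). KIFC2 is also the shortest tested kinesin gene, at 8160 bases, and shares 791 of its 4447 exon bases with FOXH1, which had at most 25 counts in a library. KIF5C and KIF5A, the neuronal kinesin-1 heavy chains, were scarce, with 108 to 174 and 17 to 34 counts per library. Their log2 fold changes were 0.38 and 0.53 with overlapping groups (adjusted p = 0.0546 and 0.209, edgeR's quasi-likelihood test), and both values were negative with mitochondrial scaling (-0.36 and -0.22). KIF5A shares 71 exon bases with DCTN2 on the opposite strand. DCTN2 had 4672 to 6263 counts per library, and reads over those bases could not be assigned. KIFC3 had 18 counts or fewer in each library and a log2 fold change of -0.59 (adjusted p = 0.302, edgeR's quasi-likelihood test), and it was lower with mitochondrial scaling (-1.32, adjusted p = 0.026, edgeR's quasi-likelihood test).

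KIF21B was the most abundant kinesin, at 55.3 CPM per kb over the 6 libraries. It encodes a kinesin-4 motor that limits microtubule growth and is known to aid centrosome movement to the immune synapse in T cells. It lies on the minus strand of chromosome 1 from 200969390 to 201023714 with 35 exons in the canonical transcript, and shares no exon base with another annotated gene. KIF21B had 487, 518 and 512 CPM with DMSO and 809, 880.3 and 826 CPM with AZD4573. The groups did not overlap, and KIF21B rose by 0.73 on the log2 scale with TMM (SE 0.0456, adjusted p = 7e-09, edgeR's quasi-likelihood test), but its value was -0.01 with mitochondrial scaling (adjusted p = 0.88, edgeR's quasi-likelihood test). Its share of all kinesin CPM, which does not depend on the scaling, went from 21.6% (SD 0.335, n = 3) to 38.6% (SD 0.678, n = 3), while the share of the mitotic class went from 45.9% ± 0.181 to 36.4% ± 0.253 (SD, n = 3).

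KIF25 and KIF26B had the largest positive log2 fold changes past the threshold, at low levels. KIF25, a kinesin-14 motor that keeps centrosomes together before mitosis, had 43, 54 and 40 counts with DMSO and 77, 67 and 101 with AZD4573, which was 0.548, 0.737 and 0.543 CPM against 1.51, 1.18 and 1.65 CPM. The treated libraries were all higher, and the log2 fold change was 1.25 (SE 0.236, adjusted p = 0.0003, edgeR's quasi-likelihood test), or 0.51 with mitochondrial scaling (adjusted p = 0.066, edgeR's quasi-likelihood test). Its annotated antisense gene KIF25-AS1, which shares 207 exon bases with it, had a log2 fold change of 1.40, and RSEM's default settings ignore strand, so that reads of the pair over those bases could not be told apart. KIF26B, an atypical kinesin-11 protein, had 22, 10 and 27 counts with DMSO and 35, 26 and 57 with AZD4573. In CPM these were 0.280, 0.137 and 0.366 against 0.688, 0.456 and 0.934, with all treated libraries higher (log2 fold change 1.40, SE 0.405, adjusted p = 0.00657, edgeR's quasi-likelihood test), and with mitochondrial scaling the value was 0.67 (adjusted p = 0.14, edgeR's quasi-likelihood test). Without AZD4573 replicate 3 KIF26B lost its call, at 1.11. KIF7 and KIF19, at 8 to 21 counts per library, did not pass the threshold (log2 fold changes 0.42 and 0.86, adjusted p = 0.367 and 0.104, edgeR's quasi-likelihood test), and with mitochondrial scaling the values were -0.32 and 0.13. Without DMSO replicate 3, KIF19 passed the threshold at 1.32 and KIF7 was at 0.21, and without DMSO replicate 2 KIF7 was at 0.67. KIF7 shares 589 of its 5446 exon bases with TICRR on the opposite strand. TICRR had 1706 to 4255 counts per library, and reads over those bases could not be assigned.

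The 5 other kinesins that were lower were KIF24, KIF21A, KIF27, KIF2A and KIF9, with log2 fold changes from -0.90 to -0.27. KIF24 acts with CP110 to restrain cilium formation, KIF21A is the kinesin-4 paralog of KIF21B, KIF27 and KIF9 serve cilia, and KIF2A is a kinesin-13 microtubule depolymerase. KIF2A shares 2446 of its 13050 exon bases with DIMT1 on the opposite strand, whose log2 fold change was -1.07, so that reads over those bases could not be assigned. KIF9 and KIF27 were close to the threshold (adjusted p = 0.0404 and 0.0416, edgeR's quasi-likelihood test) and lost their calls with DESeq2, with a replicate block, with at least 10 counts in every library and on leaving out any 1 of 4 libraries. The values nearest to 0 were those without AZD4573 replicate 3, -0.21 for KIF9 and -0.22 for KIF27. KIF9 shares 870 exon bases with KIF9-AS1 (log2 fold change 0.73) and 178 with KLHL18 (-1.23), both on the opposite strand, so its reads there could not be assigned either. The same holds for 144 exon bases that KIF24 shares with UBAP1 (-1.52) on the opposite strand.

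Pairs of paralogs were compared within each library. A ratio of 2 genes within a library does not depend on how libraries are scaled, so 14 pairs were described by the log2 ratio of their CPM per kb, with no test. The ratio of KIF21A to KIF21B was -4.66 ± 0.0676 (SD, n = 3) in the controls and -6.20 ± 0.0984 (SD, n = 3) after treatment, a shift of -1.55. The ratio of KIFC1 to KIFC2 went from 1.26 ± 0.162 to -0.06 ± 0.0577 (SD, n = 3), so that the mitotic kinesin-14 was the more abundant per kb in the controls and the pair was near parity per kb after treatment. That parity depends on the length used, the union of all annotated exons. In CPM, KIFC1 averaged 98.2 with DMSO and 70.4 with AZD4573, and KIFC2 60.3 and 107.7. For KIF18A and KIF18B, both mitotic kinesin-8 genes, the ratio per kb went from -2.57 ± 0.191 to -3.46 ± 0.107 (SD, n = 3). The ratio of the mitotic kinesin-6 genes KIF20A and KIF20B moved up instead, by 0.67. Within kinesin-2, the ratio of KIF3A to KIF3B shifted by 0.56 and that of KIF3B to KIF3C by -0.76. The ratio of KIF5B to KIF5C shifted by -1.54. In total, the AZD4573 ratios lay below the controls for 6 pairs and above them for 5, and they overlapped for 3, among them KIF1B and KIF1C (a shift of -0.03). The order of symbols set which gene was on top, so below and above have no meaning of their own. Some pairs share a gene, and each shift nearly equals the difference of the log2 fold changes of its genes. The share of other gene pairs that separate in this way was not computed, and 77.8% of single genes did not overlap between the groups.

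**Figure D4:**
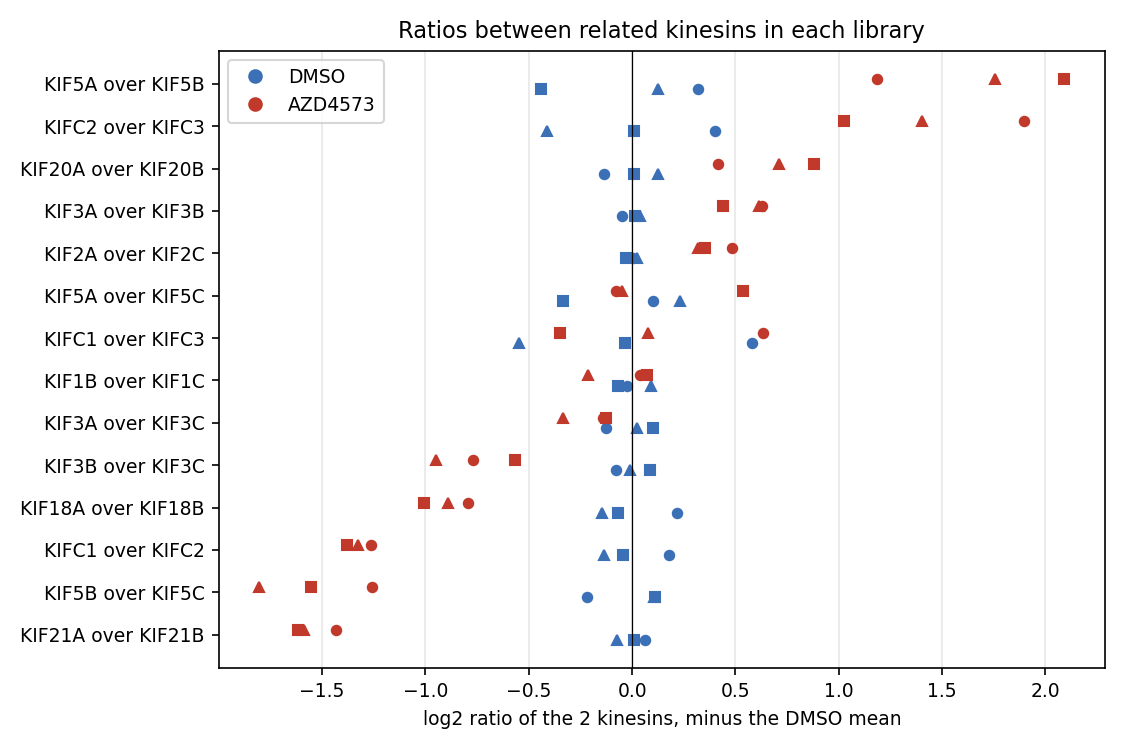
Log2 ratio of CPM per kb within each library for 14 pairs of kinesin paralogs, shown as the value of each library minus the DMSO mean of that pair, with DMSO and AZD4573 libraries as separate points. KIF21A over KIF21B, KIF5B over KIF5C and KIFC1 over KIFC2 lie lowest with AZD4573 (shifts of -1.55, -1.54 and -1.32), and KIF1B over KIF1C overlaps.

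The length of the gene was set beside the change. Over the 34 tested members, Pearson's r of log10 span with log2 fold change was -0.01 and Spearman's rho -0.12, and over 17638 genes with an annotation r was -0.11 and rho -0.10. Over the 13423 protein-coding genes tested, r and rho were both -0.03. Across the 25 kinesins with a mean of at least 5 CPM, r was -0.28 and rho -0.20. These are descriptions across genes, which are not independent replicates and share libraries.

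Genes whose products work with kinesins included both falls and rises. In this and the next lists, counts with TMM stand beside 37.4% of all genes lower and 37.3% higher. Those with mitochondrial scaling stand beside 67.2% of all genes lower and 12.1% higher. Of 21 mitotic partners, 14 were lower and 5 higher with TMM (21 lower and 0 higher with mitochondrial scaling), and the median log2 fold change was -0.36. ECT2, the RhoA activator recruited to the midzone by the KIF23 complex, had the deepest fall (-1.41, adjusted p = 4e-10, edgeR's quasi-likelihood test). PRC1, the microtubule bundler that recruits KIF4A, went from 76.6 ± 1.09 to 112 ± 4.6 CPM (SD, n = 3) and rose by 0.54 with TMM (adjusted p = 1.2e-07, edgeR's quasi-likelihood test), but its value was -0.20 with mitochondrial scaling. CENPE, the kinesin-7 motor of kinetochores, which the symbol rule does not take in, fell by 0.31 (adjusted p = 4.5e-05, edgeR's quasi-likelihood test).

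Of 23 transport partners, 12 were lower and 5 higher with TMM (19 and 2 with mitochondrial scaling), with a median of -0.31. TRAK2, which links kinesin-1 to mitochondria, averaged 31.7 CPM in the controls (SD 1.17, n = 3) and 6.05 CPM after treatment (SD 0.901, n = 3), and its log2 fold change was -2.39 (adjusted p = 1.1e-10, edgeR's quasi-likelihood test). KLC1, the light chain that pairs with KIF5B, fell by 0.55 (adjusted p = 1.4e-07, edgeR's quasi-likelihood test), less than KIF5B. KIFAP3, the accessory subunit of kinesin-2, had a log2 fold change of -0.07 with overlapping groups (adjusted p = 0.248, edgeR's quasi-likelihood test), and was lower with mitochondrial scaling (-0.81, adjusted p = 1.6e-08, edgeR's quasi-likelihood test). FEZ1, an adaptor of kinesin-1, was scarce and rose from 0.169 CPM (SD 0.118, n = 3) to 0.979 CPM (SD 0.111, n = 3), by 2.52 on the log2 scale with TMM and 1.79 with mitochondrial scaling.

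The opposing motor, dynein, and the tubulins were counted in the same way. Of 24 tested genes of dynein, dynactin and their regulators, 15 were lower and 6 higher (23 and 1 with mitochondrial scaling), with a median of -0.24. They ranged from the dynein light intermediate chain DYNC1LI1 at -2.16 to the dynactin actin-related protein ACTR1B at 0.94, the latter 0.20 with mitochondrial scaling. The regulators and adaptors in this list were PAFAH1B1, NDE1, NDEL1, BICD1, BICD2 and SPDL1. All of these were lower, from -0.99 to -0.28, so the subunits themselves were less one-sided than the list. The 14 tubulin genes included TUBG1 and TUBG2, which encode gamma-tubulin and not the alpha- and beta-tubulin of the track. Of these 14 genes, 7 were lower and 3 higher (12 and 1 with mitochondrial scaling), with a median of -0.23. They ranged from the near-identical TUBB2A and TUBB2B, both at -1.43 and not safely told apart by short reads, to the scarce TUBB6 at 2.16 (1.42 with mitochondrial scaling). Of 11 genes of the MuvB, DREAM and FOXM1 group, which control late cell-cycle promoters, 6 were lower and 3 higher (11 and 0 with mitochondrial scaling), with a median of -0.38. LIN54, the MuvB subunit that contacts the cell cycle homology region, averaged 24.3 CPM in the controls (SD 0.687, n = 3) and 7.62 CPM after treatment (SD 0.585, n = 3), and its log2 fold change was -1.67 (adjusted p = 3.3e-10, edgeR's quasi-likelihood test). The pocket protein RBL2 rose by 0.47 with TMM and was at -0.27 with mitochondrial scaling. FOXM1, a transcription factor of G2 and mitosis genes, had a value of 0.09 with TMM (adjusted p = 0.0501, edgeR's quasi-likelihood test) and was lower with mitochondrial scaling (-0.65, adjusted p = 1.9e-08, edgeR's quasi-likelihood test).

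**Figure D5:**
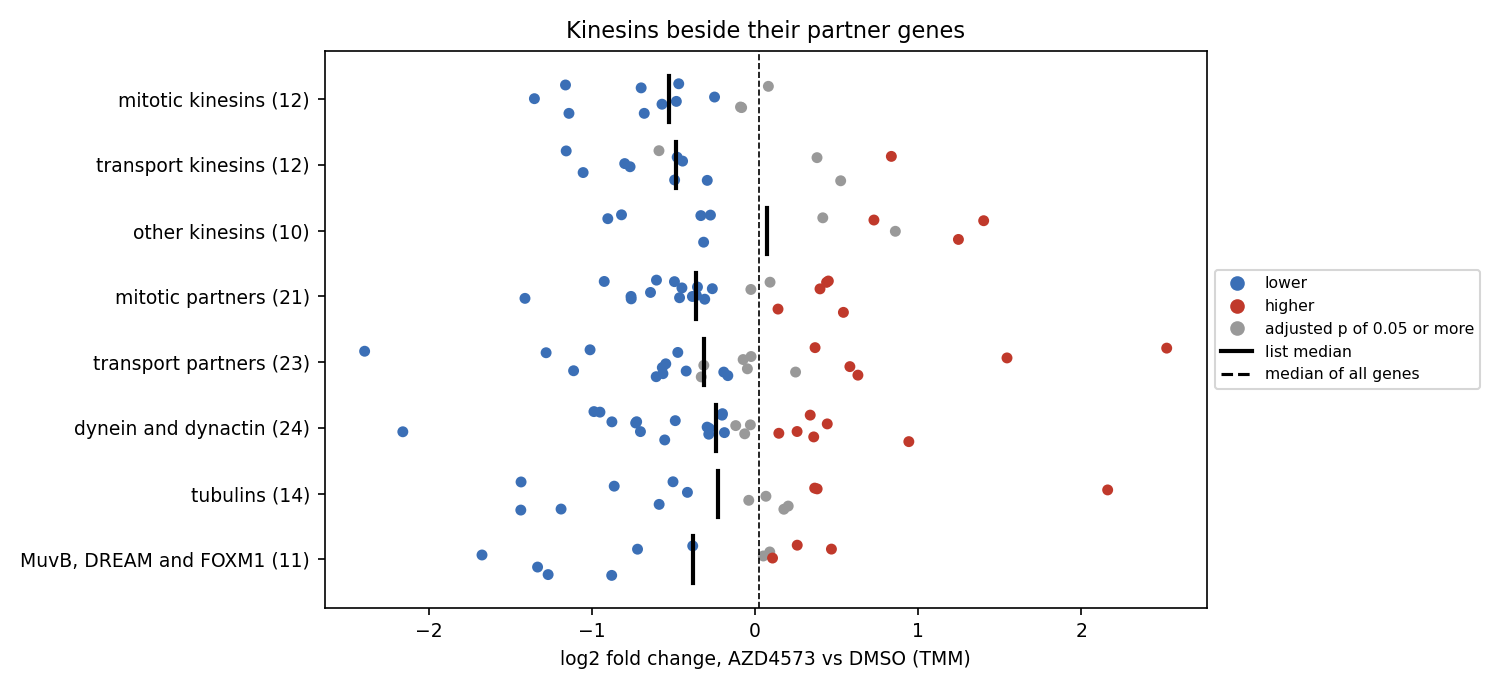
Log2 fold change (AZD4573 against DMSO, TMM scaling) of every tested gene in the 3 kinesin classes and 5 lists of partner genes, coloured by call, with list medians as black bars and the median of all genes (0.03) as a dashed line. Medians of the mitotic and transport kinesins (-0.53 and -0.48) lie below those of the partner lists, which run from -0.38 to -0.23, and with mitochondrial scaling most of the higher calls are lost.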

How the data were processed

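RNA-seq of H9 cells comprised 3 DMSO and 3 AZD4573 libraries, grouped by their labels. The authors trimmed reads (Cutadapt 2.3), aligned them to GRCh38 (STAR 2.7.8a) and used RSEM 1.3.3 for expected counts of each gene. These deposited values are whole numbers and were not normalized. RNA selection is given as poly(A) in the labels and as rRNA depletion in the methods.

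In R 4.3.3, edgeR 4.0.16 filtered genes (filterByExpr, minimum count 10), scaled libraries by TMM and ran the quasi-likelihood test without a replicate block. P-values were adjusted after Benjamini and Hochberg over 17678 genes. Positions, exon unions and overlaps came from GENCODE release 44, promoters from RefSeq. Alternatives were RLE factors, library size only, mitochondrial scaling, no filter or 10 counts in each library, leaving out libraries singly, a replicate block, DESeq2 1.42.0, a fold of at least 1.5 and other class borders. The procedure was tested on simulated data.

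Members, classes and lists were chosen with earlier results of these data known. Genes given in every library were the 5 most abundant mitotic and transport kinesins per kilobase of exon, and up to 5 largest falls and rises past the threshold. Members not past it, near-identical copies and, from each partner list, the largest fall and rise and set genes were also named.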

Additional observations from a re-analysis of the deposited data

How the results depend on the processing

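Of the 34 kinesins tested, 20 had the same direction and the same call under every alternative that gave a value, and 26 did so under every such one but mitochondrial scaling. KIFC3 had no value with at least 10 counts in every library or without DMSO replicate 2 or 3, and KIF19 none with at least 10 counts in every library. The others were KIF14, KIF19, KIF22, KIF26B, KIF27, KIF4A, KIF5C and KIF9. Library size as the only scaling put KIF4A at -0.022, and mitochondrial scaling put KIF4A at -0.66, KIF21B at -0.0095, KIF5A at -0.22, KIF7 at -0.32 and KIF5C at -0.36, all with the opposite sign. The class medians moved to -0.63 (mitotic) and -0.59 (transport) with library size only and to -1.26 and -1.22 with mitochondrial scaling. With a fold of at least 1.5, 5 mitotic and 4 transport kinesins were lower. Higher transport kinesins numbered 0 with mitochondrial scaling and 2 with at least 10 counts in every library. Lower mitotic kinesins numbered 11 with library size only, 12 with mitochondrial scaling and 10 without a filter. Leaving out 1 library gave 9 to 10 lower mitotic kinesins (10 without DMSO replicate 1 or AZD4573 replicate 2), 0 to 1 higher mitotic kinesins (1 without AZD4573 replicate 1) and 1 to 2 higher transport kinesins (2, with KIF5C added, without DMSO replicate 1 or AZD4573 replicate 1). Across 438 values of single kinesins under alternatives, 401 kept call and direction, 18 lost a call, 13 gained one and 6 reversed. The labels number replicates 1 to 3 in both groups, but deviations of same-numbered libraries correlated at -0.00724, 0.0707 and -0.0203, so the numbers were not taken as pairs. With a replicate block, mitotic kinesins gave 9 lower and 0 higher and transport kinesins 8 lower and 1 higher, and KIF9 (-0.28) and KIF27 (-0.34) lost their calls. Counts were lowest for KIF5A, KIF7, KIF19 and KIFC3, at 34 or fewer per library, and whether depth bears on their missing calls was not tested. The cause of these dependences was not tested.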
